A study of Saccharomyces cerevisiae with 13 samples.

Results

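The change of total RNA upon heat shock was taken from the pooled total RNA data set of log phase *S. cerevisiae* at 30° and the pooled total RNA (HS) data set of cultures kept for a further 20 min at 39°. Genes were matched by transcript model. A gene entered the comparison when its read density was above 0 in both data sets and its summed read depth was at least 12 in total RNA and at least 16 in total RNA (HS), which is about 10.7 and 10.5 reads. Of 4280 transcript models, 3282 had a read density above 0 in both data sets and 2104 passed the minimum. These 2104 well-covered genes held 96.9% of the reads within models in total RNA and 98.3% in total RNA (HS). Read density is the read depth averaged over those bases of a transcript that are mappable and not intronic, leaving out the stretch next to the TSS, and it is scaled to the bases acquired in the data set.

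All cultures were of BY4742, a haploid laboratory strain of the alpha mating type with deletions in *HIS3*, *LEU2*, *LYS2* and *URA3*, grown in rich medium with glucose and with no other agent. The series held 13 libraries, 3 in each of the groups total RNA, total RNA (HS), NRO and NRO (HS), and 1 from the 3′ ends of nascent transcripts that was not used. NRO, the nuclear run-on, labels the RNA that engaged polymerases extend in permeabilized cells, and the total RNA libraries came from aliquots of the run-on samples before the selection of labeled RNA. The processed tables used here merge the 3 libraries of each group, so that each gene had 1 value per group. The spread between libraries was not analysed here, and a difference compares 2 pools of libraries. *LYS2* had 0 reads in both total RNA data sets, and the 6 genes that only cells of the opposite mating type use had 10 and 3 reads in sum. The data sets held an estimated 894262 reads for total RNA and 656630 for total RNA (HS), with a median of 23 and 11 reads per model. These numbers rest on read lengths of 38 and 36 bases read off the depths. A length of 36 bases in total RNA, as in the other data sets, would leave 2.02% of its low depths whole instead of 79.2% and give 943943 reads.

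When yeast are moved to a warmer medium, the transcription factor Hsf1 raises genes for molecular chaperones, and the factors Msn2 and Msn4 raise a broad set of stress genes for trehalose, glycogen, antioxidant enzymes and protein turnover. At the same time cells are known to stop investing in growth. Genes for ribosomal proteins, which are driven by Rap1, Fhl1, Ifh1 and Sfp1, and genes for ribosome assembly, which carry the PAC and RRPE promoter elements bound by the repressors Dot6, Tod6 and Stb3, fall while the stress genes rise.

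The median well-covered gene had a read density ratio of 0.834 after over before heat shock, a change of -0.26 on the log2 scale as deposited. Since both data sets are scaled to their own total and the amount of RNA per cell was not measured, each change is given below as a relative change, which is the log2 ratio minus that median. A relative change of 1 is thus a 2-fold rise against the median gene. The libraries are bulk RNA, in which fewer cells holding a transcript and less of it per cell cannot be told apart. Genes with a relative change of at least 2-fold were called higher or lower. Most named changes of total RNA are followed by their exact binomial 95% interval on estimated reads, which covers counting error only. Some changes of total RNA and all NRO values are given without an interval.

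Among the 2104 genes, 253 were called higher, which is 12%, and 229 were called lower, which is 10.9%. On the scale as deposited the split was 160 higher, or 7.60%, and 374 lower, or 17.8%. The counting interval lay beyond the median for 246 of the 253 and 228 of the 229. At least 4-fold changes were seen in 61 higher and 30 lower genes, and at least 8-fold changes in 22 and 3. These counts do not compare the size of rises and falls, because the minimum removed far falls: among 505 models that met it before heat shock only, 156 were at least 4-fold and 60 at least 8-fold lower or at 0, against 39 and 14 higher by as much among 75 models that met it after heat shock only. The middle part of the distribution was nearly even, from -0.51 at the lower quartile to 0.53 at the upper quartile.

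The genes called lower took 12.7% of the reads of well-covered genes before heat shock and 4.07% after, and their median read density went from 0.119 to 0.0351. The genes called higher took 9.65% before and 28.1% after, and their median read density went from 0.0497 to 0.143. The direction of these contrasts is fixed by the calls, which were made from the same densities, so they describe only their size. When the genes were divided into 5 equal bins of read density before heat shock, 4.75% were called lower and 20.9% higher in the lowest bin, and 17.3% were called lower and 8.79% higher in the highest bin. Because the density before heat shock is also the denominator of the ratio, and because the minimum after heat shock keeps a falling gene only when it was deep before, neither the median densities nor this order show that falling transcripts were the more abundant.

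**Figure D1:**
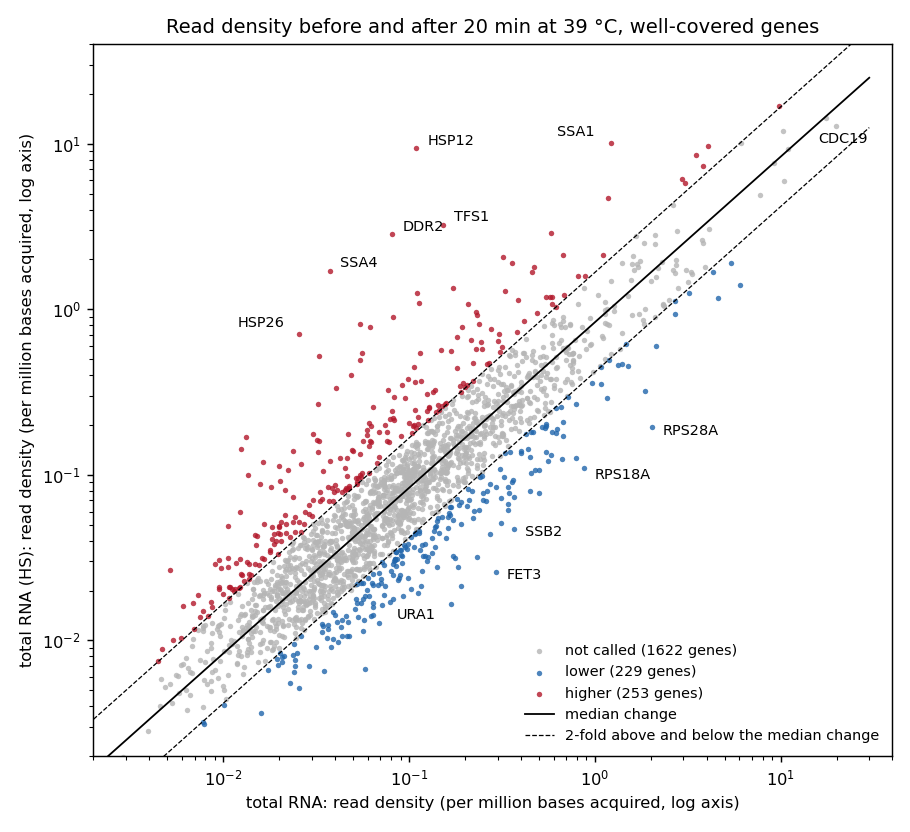
Read density of each of the 2104 well-covered genes in total RNA (x axis) and total RNA (HS) (y axis), both on log axes and scaled to the bases acquired; the solid line is the median change and the dashed lines are 2-fold above and below it. The 253 genes called higher reach up to HSP12 and the 229 called lower down to FET3, RPS28A and URA1; genes with too few reads after heat shock are not drawn.

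Among the 12 largest falls of well-covered genes with at least 50 reads before heat shock, 6 were ribosomal protein genes. *FET3*, the multicopper oxidase of high-affinity iron uptake (chrXIII:388978-390878 in sacCer2, as for all gene regions below), was the lowest of these well-covered genes. *HTB1* and *SSB1*, which missed the minimum after heat shock, were lower still at -3.93 and -3.50. Its read density was 0.293 in total RNA and 0.0260 in total RNA (HS), with 498 and 32 reads, a relative change of -3.23 (-3.82 to -2.74) or 9.40-fold. Its partner in iron uptake, the permease *FTR1*, went from 453 to 59 reads with a change of -2.23 (-2.65 to -1.84), and the siderophore transporter *ENB1* changed by -1.31. Of the 5 well-covered iron and copper genes, 3 were called lower and 1, the heme oxygenase *HMX1*, was called higher at 1.19 (0.17 to 2.25) with 15 and 21 reads.

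*URA1*, the dihydroorotate dehydrogenase of pyrimidine synthesis (chrXI:25386-26401), went from a read density of 0.168 to 0.0165, with 153 and 11 reads and a relative change of -3.09 (-4.12 to -2.21). *BAT1*, the mitochondrial branched-chain aminotransferase, went from 190 to 21 reads and changed by -2.46 (-3.20 to -1.82). *RTN1*, a reticulon that shapes the tubular endoplasmic reticulum, went from 134 to 11 reads and changed by -2.90 (-3.94 to -2.01). *VTC2*, a subunit of the vacuolar polyphosphate polymerase, went from 130 to 11 reads and changed by -2.86 (-3.89 to -1.97). In the same complex *VTC4* was called lower at -1.43, whereas *VTC3*, with 16 and 19 reads, had 0.93 (-0.08 to 2.01). *SSB2*, a chaperone of the Hsp70 class that binds nascent chains at the ribosome, went from 369 to 35 reads with a change of -2.69 (-3.23 to -2.19). Only 63.2% of its bases were mappable, because *SSB1* is a near-identical copy.

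**Figure D2:**
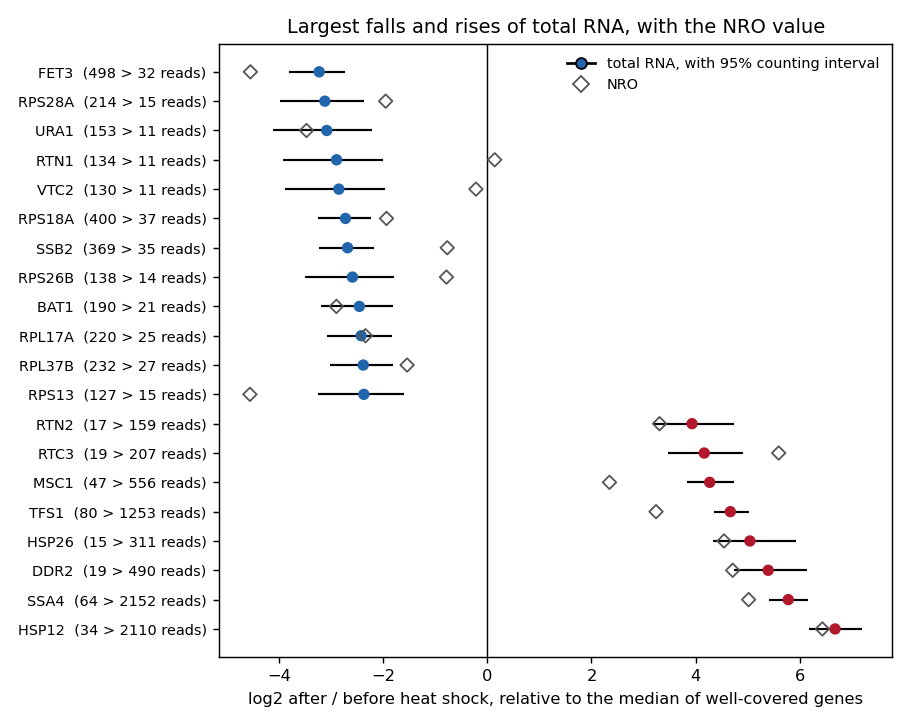
Relative log2 change of total RNA for the 12 largest falls and 8 largest rises of well-covered genes (filled circles, with horizontal lines for the 95% counting interval), beside the change of nascent RNA in the NRO data sets (open diamonds); estimated reads before and after are given with each name. All 8 rises have a positive NRO value, and among the falls RTN1 and VTC2 have NRO values near 0, at 0.14 and -0.22.

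Ribosomal protein genes formed the largest group among the falling transcripts. Of 27 well-covered genes for proteins of the small subunit, 15 were called lower, 0 higher, and 25 lay below the median gene, with a median relative change of -1.16. Of 48 genes for proteins of the large subunit, 27 were called lower, 0 higher, and 45 lay below, with a median of -1.10. Together the 75 genes took 9.10% of the reads of well-covered genes before heat shock and 4.17% after, and they made up 18.3% of all genes called lower while being 3.56% of the genes compared.

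The deepest of these genes fell less than the deepest falls. *RPP0*, the stalk protein of the large subunit and the ribosomal protein gene with the most reads (chrXII:806025-806911), went from a read density of 3.92 to 1.80 with 3113 and 1048 reads, a change of -0.86 (-0.97 to -0.76). *RPS2* of the small subunit went from 3.09 to 1.72 with 2077 and 848 reads, a change of -0.58 (-0.70 to -0.47). *RPL33A* went from 6.03 to 1.40 with 1914 and 327 reads, a change of -1.84 (-2.02 to -1.67). The intervals of *RPL33A* and *RPP0* do not meet, so that the genes of 1 complex differed among themselves by more than counting error.

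At the lower end, *RPS28A* (chrXV:648704-648821), whose region held only 118 bases, went from 214 to 15 reads and changed by -3.12 (-3.99 to -2.37). *RPS18A* (chrIV:1360092-1360909) went from a read density of 0.874 to 0.110 with 400 and 37 reads, a change of -2.73 (-3.25 to -2.24). *RPL17A* went from 220 to 25 reads and changed by -2.43 (-3.09 to -1.83). At the other end, 5 of the 75 genes lay above the median, and each of the 5 is 1 copy of a duplicated gene. *RPS9A* had 250 and 263 reads and a change of 0.78 (0.53 to 1.04), *RPS14B* had 305 and 252 reads and 0.43 (0.19 to 0.68), *RPL15B* had 136 and 92 reads and 0.14 (-0.25 to 0.54), and *RPL14B* and *RPL9B* had 26 and 18 reads after heat shock.

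Most ribosomal proteins of yeast are made from 2 paralogous genes, and the copies of a pair could be set side by side where both were well covered. In 18 such pairs, both copies lay below the median in 14 and both were called lower in 6. The counting intervals of the copies were apart in 5 pairs. *RPS9B*, with 613 and 194 reads, changed by -0.95 (-1.19 to -0.72) while *RPS9A* was above the median. *RPL15A*, with 2251 and 577 reads, changed by -1.26 (-1.39 to -1.12) while *RPL15B* had 0.14. *RPS0B*, with 1616 and 207 reads, changed by -2.26 (-2.47 to -2.05), and *RPS0A*, with 2068 and 698 reads, by -0.86 (-0.99 to -0.73). The other 2 pairs were *RPS14A* and *RPS14B* and *RPL14A* and *RPL14B*. In the remaining 13 pairs the copies did not differ beyond their counting intervals, as in *RPL34A* and *RPL34B* at -1.93 and -1.87. Only bases with a unique match counted, and a read placed on the wrong copy was not tested.

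The machinery that builds ribosomes moved the same way. It comprises the small subunit processome, which cuts and folds the precursor of the 18S rRNA, the small nucleolar RNPs, which guide its modification, and the factors that assemble and export the 60S subunit. Of 19 well-covered processome genes, 6 were called lower, 0 higher, and 17 lay below the median, with a median change of -0.78. Of 32 genes for 60S assembly, 7 were called lower, 0 higher, and 28 lay below, with a median of -0.56. Of 4 late factors of the 40S subunit, 0 were called and the median was -0.31.

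*REA1*, the very large AAA ATPase that strips assembly factors from the pre-60S particle (chrXII:348856-363668), went from 2294 to 313 reads and from a read density of 0.173 to 0.0322, a change of -2.17 (-2.34 to -1.99). Its substrate *YTM1* went from 73 to 12 reads and changed by -1.90 (-2.91 to -1.01). In the processome, *RRP5*, which acts on both subunits, went from 635 to 125 reads and changed by -1.64 (-1.93 to -1.36). *ENP2* went from 101 to 15 reads and changed by -2.04 (-2.93 to -1.25), and *MPP10* from 126 to 21 reads and changed by -1.88 (-2.62 to -1.20). *DIP2* and *BUD20*, the highest members of their lists, had 0.34 (-0.14 to 0.81) and 0.37 (-0.03 to 0.77), both within counting error of the median gene. The box H/ACA proteins *GAR1*, from 760 to 193 reads and -1.27 (-1.51 to -1.04), and *CBF5*, the pseudouridine synthase, at -1.05 (-1.59 to -0.53), were called lower, while the methylase *NOP1* had -0.30 (-0.54 to -0.06). *MTR4*, the helicase that feeds the nuclear exosome during rRNA maturation, went from 102 to 14 reads and changed by -2.16 (-3.08 to -1.35), against a median of -0.08 for the 11 genes of RNA decay.

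The promoters of these genes are shown because genes of this group moved together and the sequence was not used to choose them. Windows ran from 250 bases before to 50 bases after the start codon, in the RefSeq annotation of the R64 assembly. The PAC core was searched as GATGAG and the RRPE core as AAAATTTT or AAAAATTT, each on both strands. The RRPE letters can overlap each other, and they overlap no PAC match. Of 6007 promoters, 20.4% held the PAC core, 16.0% the RRPE core and 6.34% both. Both were found in 18 of the 19 processome genes and in 26 of the 32 genes for 60S assembly. The ribosomal protein genes differed in sequence while moving in the same direction: the PAC core stood in 2 of 27 and 6 of 48 of their promoters, and both elements in 0 of 27 and 1 of 48.

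The 2 elements often lay close to each other. In the 57 of 67 promoters of the ribosome assembly and RNA polymerase I and III lists that held both, the nearest matches started a median of 16 bases apart, and 50 of the 57 had them within 30 bases. Among genes outside these lists 250 promoters held both, with a median distance of 29 bases and 133 of the 250 within 30 bases. Members of the lists that were not well covered had both in 74 of 93 promoters, at a median of 18.5 bases. Stretches that hold the pair in genes called lower are printed below, written 5′ to 3′ on the strand of the gene, with the RRPE and PAC letters in capitals. They lie at chrXII:363934-363963 for *REA1*, chrX:438770-438798 for *MPP10*, chrXIII:731267-731296 for *RRP5*, chrXV:832651-832680 for *YTM1* and chrVIII:283412-283440 for *GAR1*, in R64 coordinates from RefSeq.
REA1: gtgaAAAATTTTaaagaagcGATGAGctaa
MPP10: cagAAAATTTTcaattttgcGATGAGctc
RRP5: attttgaAAAATTTTaaGATGAGatgagct
YTM1: ttcaAAAATTTTctgaagtgCTCATCtcat
GAR1: agtgaaAAATTTTTcgaGATGAGgaaagg

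Over all well-covered genes, the 155 with both cores had a median relative change of -0.51, with 21.3% called lower and 1.94% called higher, against 0.04, 10.1% and 12.8% in the 1948 without the pair. Of the 155, 57 are genes of the ribosome assembly and RNA polymerase I and III lists already described. The contrast is therefore not independent of those lists, and the other genes with both cores were not examined apart. A match is a description of the letters and not of a bound site.

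The enzymes that charge tRNAs formed a further group. All 16 well-covered genes for aminoacyl-tRNA synthetases lay below the median gene, 10 were called lower, and their median change was -1.15. *TYS1*, the tyrosyl-tRNA synthetase (chrVII:866270-867358), went from 172 to 22 reads and changed by -2.23 (-2.97 to -1.61). *DED81*, the asparaginyl-tRNA synthetase, went from 946 to 216 reads and changed by -1.43 (-1.64 to -1.21). The aspartyl enzyme *DPS1* had the most reads, 1655 and 998, and a change of -0.02 (-0.14 to 0.09). The genes of this class therefore ran from no detectable relative change to more than 4-fold lower. Of 8 genes for tRNA modification, 2 were called lower, with *TRM1* at -1.86 (-2.88 to -0.96).

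Translation factors moved less. Of 20 genes, 3 were called lower, which is 15% and near the 10.9% of all well-covered genes. In this list 16 lay below the median gene and the median was -0.39. *YEF3*, the fungal elongation factor that clears the exit site of the ribosome, went from a read density of 2.34 to 1.06 with 6408 and 2135 reads, a change of -0.88 (-0.95 to -0.81). *EFT2*, *TIF1* and *TEF1*, the 3 genes called lower, are each 1 of a near-identical pair. The copies *EFT1* and *TEF2* were not called, at -0.40 and -0.05. For *EFT2*, with 114 and 27 reads, 19% of the bases were mappable. *CAM1*, a subunit of the exchange factor of elongation factor 1, was the highest member at 0.66 (0.47 to 0.85). Across the lists for ribosomal proteins, ribosome assembly, RNA polymerases I and III, tRNA and translation factors, 73 of 186 genes were called lower and 0 higher. They took 16.1% of the reads of well-covered genes before heat shock and 8.02% after.

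**Figure D3:**
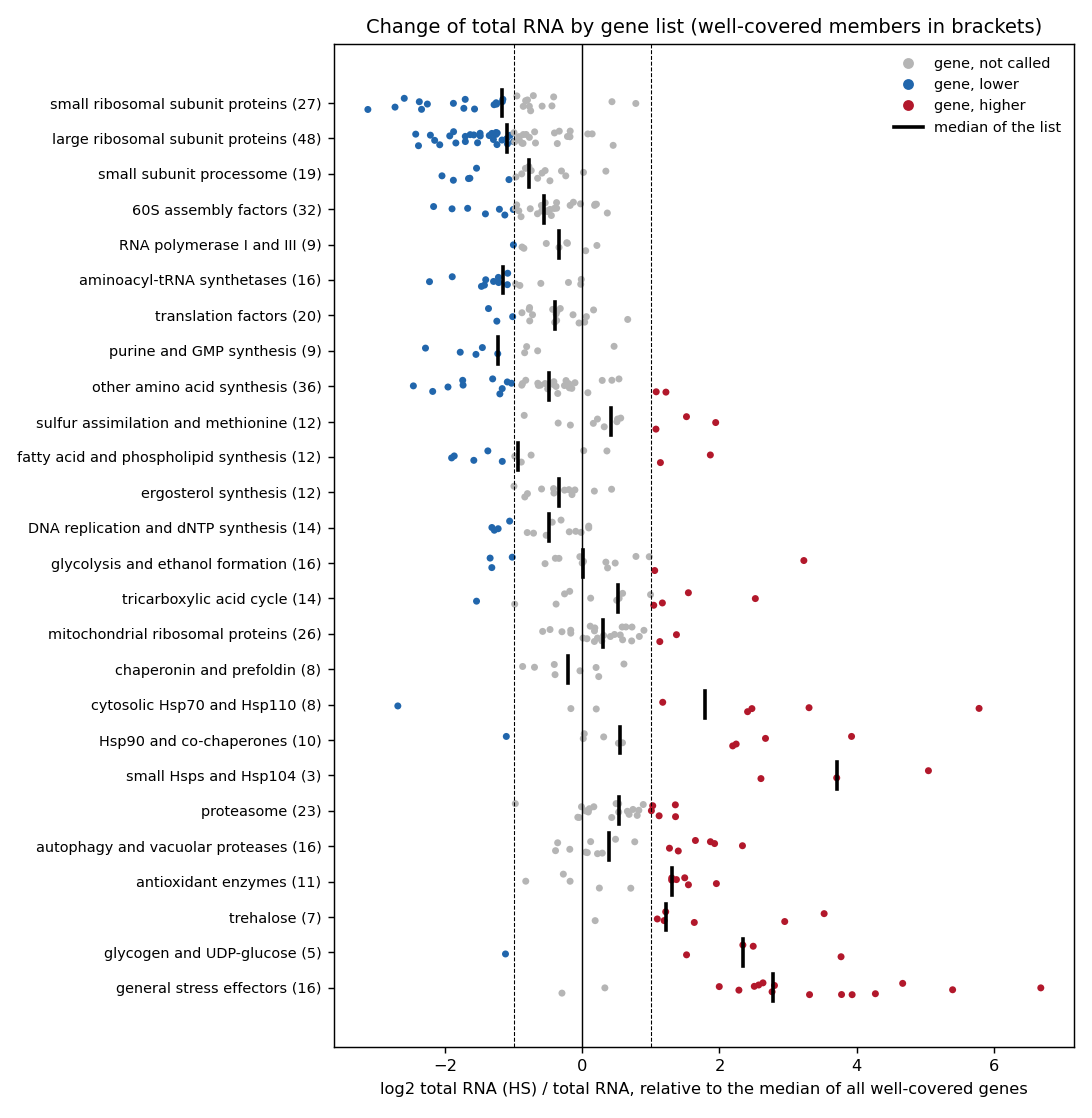
Relative log2 change of each well-covered gene in 26 gene lists (points, colored by call), with the median of the list as a black bar, the median of all genes as a solid line and 2-fold changes as dashed lines. The lists for ribosomes, tRNA charging and purine synthesis lie to the left, down to RPS28A at -3.12, and the lists for chaperones, trehalose, glycogen and stress effectors to the right, up to HSP12 at 6.68.

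Nucleotide synthesis was low as well. Of 9 well-covered genes for the synthesis of purines and GMP, 5 were called lower and the median was -1.23. *ADE6*, from 1003 to 224 reads, changed by -1.46 (-1.67 to -1.24), *ADE17*, from 196 to 35 reads, by -1.78 (-2.34 to -1.25), and the GMP synthase *GUA1*, from 151 to 19 reads, by -2.28 (-3.05 to -1.59). *ADE16* carries the same activity as *ADE17* and had 753 and 636 reads and a change of 0.46 (0.31 to 0.62). Of 4 genes for pyrimidines, *URA1* and *URA5* at -1.70 (-2.27 to -1.16) were called lower, while the CTP synthase *URA8* had 0.94 (0.72 to 1.16). Genes for deoxynucleotides fell too. The subunits of ribonucleotide reductase *RNR1*, *RNR2* and *RNR4* changed by -1.32 (-1.84 to -0.82), -1.23 (-2.33 to -0.24) and -1.28 (-1.79 to -0.77), whereas *MCM3*, of the replicative helicase, had -0.02 (-0.25 to 0.21).

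Amino acid synthesis did not move as 1 block. Outside the sulfur pathway, 10 of 36 genes were called lower, 2 higher and 30 lay below the median, with a median of -0.48. In the branched-chain pathway the genes differed. *ILV3*, from 1779 to 327 reads, changed by -1.74 (-1.91 to -1.57), *LEU1*, from 1039 to 164 reads, by -1.96 (-2.20 to -1.72), and *ILV5*, from 3582 to 1029 reads, by -1.09 (-1.19 to -0.99), whereas *ILV2*, *ILV6* and *LEU9* were not called, at -0.61, -0.20 and -0.88, and *BAT2* was called higher. *GCN4*, the activator of amino acid synthesis, went from 114 to 20 reads and changed by -1.79 (-2.57 to -1.11). In sulfur assimilation and methionine synthesis, 3 of 12 genes were called higher and 0 lower, with a median of 0.41 and *MET1* highest at 1.94 (1.00 to 2.96). Of 17 permeases for amino acids and ammonium, 4 were called higher and 1 lower. The methionine permease *MUP1* rose from 64 to 139 reads, a change of 1.83 (1.39 to 2.28), and *TAT1*, for tyrosine and other amino acids, went from 162 to 44 reads, a change of -1.17 (-1.69 to -0.68).

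In lipid synthesis, 5 of 12 genes for fatty acids and phospholipids were called lower and 2 higher. Both subunits of fatty acid synthase were lower, *FAS1* from 672 to 110 reads at -1.90 (-2.21 to -1.61) and *FAS2* from 2757 to 753 reads at -1.17 (-1.28 to -1.05). The 2 proteins act in equal number, and their intervals do not meet. *OLE1*, the sole fatty acid desaturase, changed by -1.38 (-1.98 to -0.82), the acyl-CoA synthetase *FAA4* by -1.87 (-2.17 to -1.57) and the elongase *ELO2* by -1.58 (-2.43 to -0.82). The methyltransferase *OPI3*, which makes phosphatidylcholine, rose from 98 to 220 reads at 1.87 (1.52 to 2.23). Of 12 ergosterol genes, 0 were called in either direction and 10 lay below the median, with *ERG6* lowest at -0.99 (-1.40 to -0.59).

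Of the genes tied to division, 2 of 4 cyclins, 1 of 3 histone genes and 4 of 14 genes for DNA replication and dNTP synthesis were called lower, and 1 cyclin higher. Over all well-covered genes 10.9% were lower and 12% higher, and lists of 3 or 4 genes are too small to set against these shares. The 4 of 14 were *RNR1*, *RNR2*, *RNR4* and *POL12*. Of the helicase genes, *MCM2* had -0.53 and *MCM3* to *MCM7* lay between -0.19 and 0.09. The cyclins *PCL1*, from 171 to 32 reads, and *CLN2*, from 91 to 21 reads, changed by -1.73 (-2.30 to -1.16) and -1.41 (-2.17 to -0.71), while *CLN3*, which acts at the entry to the cycle, was called higher at 1.25 (0.79 to 1.71). Of the histone genes, *HHT2* was called lower, from 255 to 55 reads at -1.51 (-1.95 to -1.08). Others missed the minimum after heat shock. *HTB1* had 99 reads before and 4 after, with a change of -3.93 (-5.83 to -2.52), and *HHF1* had 38 and 1. Nuclear transport receptors were led by *KAP123*, a carrier of ribosomal proteins, which went from 120 to 21 reads and changed by -1.81 (-2.55 to -1.13). All 6 genes of that list lay below the median. Among regulators, the repressor of hypoxic genes *ROX1* went from 118 to 17 reads and changed by -2.06 (-2.91 to -1.35). The regulators of the ribosome genes themselves did not move as far. Of 8 such genes 0 were called, with a median of -0.04. The PAC-binding repressors *TOD6* and *DOT6* had 0.78 (0.31 to 1.25) and 0.00 (-0.16 to 0.17), and the RRPE-binding repressor *STB3* had -0.81 (-1.45 to -0.21).

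Falls were also found outside the lists. All lists together held 30.6% of the well-covered genes and 57.6% of the 229 genes called lower, so falls were less frequent outside them. The remaining 97 genes called lower were in no list. They included *PXR1* and *NOP6*, both of which act in the nucleolus, at -2.06 (-2.62 to -1.55) and -1.76 (-2.37 to -1.19). The plasma membrane proton pump *PMA1*, one of the deepest transcripts, was just inside the 2-fold limit, from 6225 to 1929 reads at -0.98 (-1.06 to -0.91).

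The minimum after heat shock removed genes with few reads after it, some of which fell far. In total, 505 models met the minimum before heat shock only, of which 344 were at least 2-fold below the median or at 0 after, 24 had a read density of 0 after heat shock, and 35 had at least 50 reads before. The 6 with the most reads before were *SSB1*, from 134 to 7 reads, *HTB1*, *RPL17B*, from 85 to 6, *ETT1*, from 82 to 9, *NDE1*, from 80 to 10, and *PMI40*, from 80 to 6. A group of 75 models met the minimum after heat shock only, and 71 of them were at least 2-fold above the median. The 4 with the most reads after were *SOL4*, from 8 to 91 reads, *PIR3*, from 2 to 69, the cytosolic catalase *CTT1*, from 3 to 51, and *NSG2*, from 10 to 42. The count of falls is thus the more strongly cut by the minimum. Just inside it lay *POF1*, *EMP46* and *MAG2*, each with a summed depth of 12.3 before heat shock, and just outside *RPL20B* and *YIA6*, with 15.9 and 16.0 after, and *PEX8*, with 11.8 before.

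The rises were led by stress effectors and chaperones. *HSP12*, a small protein that protects membranes (chrVI:107411-107753), went from a read density of 0.109 to 9.37, with 34 and 2110 reads and a relative change of 6.68 (6.18 to 7.20), or 103-fold. *SSA4*, the inducible cytosolic Hsp70 (chrV:364730-366642), went from 0.0373 to 1.71, with 64 and 2152 reads and a change of 5.78 (5.42 to 6.16). *DDR2*, from 19 to 490 reads, changed by 5.40 (4.74 to 6.14) and the small chaperone *HSP26*, from 15 to 311 reads, by 5.05 (4.34 to 5.94). *TFS1*, an inhibitor of carboxypeptidase Y, changed by 4.67 (4.35 to 5.02). The 8 largest rises closed with *MSC1*, *RTC3* and *RTN2* at 4.27, 4.17 and 3.93.

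Among the chaperones, the classes differed. All 3 genes for small heat shock proteins and the disaggregase were called higher, with *HSP42* at 3.71 (3.38 to 4.07) and *HSP104*, which pulls proteins out of aggregates, at 2.60 (2.23 to 2.99). Of 8 genes for cytosolic Hsp70 and Hsp110, 5 were higher and 1, *SSB2*, lower. *SSA1* rose from a read density of 1.22 to 10.1 with 1022 and 6186 reads, a change of 3.31 (3.21 to 3.40). Its bases were 49% mappable. Of 10 genes for Hsp90 and its partners, 4 were higher and *PPT1*, a phosphatase of Hsp90, was lower at -1.11 (-1.76 to -0.48). *HSP82* changed by 3.92 (3.65 to 4.23) and *STI1*, which links Hsp70 to Hsp90, by 2.67 (2.54 to 2.80). Of 7 J-domain co-chaperones 2 were higher, *SIS1* at 1.83 (1.64 to 2.01) and *YDJ1* at 1.10 (0.88 to 1.32). In mitochondria *HSP60*, the chaperonin, went from 684 to 1920 reads at 2.20 (2.07 to 2.32). Its cytosolic counterpart, the ring of *CCT* genes, was listed with prefoldin. Of these 8 genes 0 were called, against 12% higher and 10.9% lower of all well-covered genes. With 8 genes, 0 calls cannot be told from these shares. The 8 genes ran from *TCP1* at -0.87 (-1.69 to -0.13) to *CCT4* at 0.61 (0.22 to 1.01).

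Carbohydrate stores, redox and turnover lists also held rising genes. Of the 253 genes called higher, 162 were in no list, which is close to the share of all well-covered genes in no list. The lists together held 35.97% of the genes called higher and 30.6% of the well-covered genes. All 7 trehalose genes lay above the median and 6 were called higher, both the synthase subunits *TPS1*, from 416 to 1969 reads at 2.95 (2.80 to 3.11), and *TSL1*, from 332 to 2339 reads at 3.53 (3.36 to 3.69), and the trehalase *NTH1* at 1.63 (1.32 to 1.95). Of 5 genes for glycogen and UDP-glucose, 4 were higher, with *PGM2* at 3.77 (3.08 to 4.54). The 2 glycogen synthases parted, *GSY2* at 1.52 (1.24 to 1.81) and *GSY1* at -1.12 (-2.23 to -0.12) with 11 reads after heat shock. Of 11 antioxidant genes, 6 were higher, among them the peroxiredoxin *AHP1*, from 1347 to 2411 reads at 1.55 (1.45 to 1.64). The vacuolar proteases *PRB1*, from 444 to 1372 reads, and *PEP4*, from 291 to 559, changed by 2.33 (2.18 to 2.49) and 1.65 (1.44 to 1.86). Polyubiquitin *UBI4* changed by 3.15 (2.37 to 4.14). The proteasome moved less, with 5 of 23 genes called higher, 19 above the median and a median of 0.53. Across the lists for folding, stores, redox, stress and proteolysis, 63 of 137 genes were called higher and 3 lower, and their share of reads was 6.49% before heat shock and 16.6% after.

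Some groups stayed near the median gene. Glycolysis, the most abundant pathway in reads, took 16.4% of reads before and 17.1% after and had a median of 0.01 over 16 genes, which is below 0 on the scale as deposited. Within it *HXK2*, *PFK1* and *PGI1* were called lower, with *HXK2* from 577 to 139 reads at -1.34 (-1.62 to -1.08). *PFK1* had -1.32 (-1.65 to -0.99), while *PFK2*, the other subunit of phosphofructokinase, had 0.34 (0.24 to 0.45). *ADH1*, the alcohol dehydrogenase, at 1.06 (1.01 to 1.10) and *TDH1* at 3.23 (2.97 to 3.50) were called higher. *CDC19*, the pyruvate kinase with the most reads of all the lists, 23490 and 14042, had -0.03 (-0.06 to 0.00). The ribosomal proteins of mitochondria did not share the course of the cytosolic ones. Of 26 genes, 2 were called higher, 0 lower, and 21 lay above the median gene, with a median of 0.30, against -1.16 and -1.10 for the cytosolic subunits. For nuclear genes of oxidative phosphorylation 1 of 9 was called, *COX5B*, and the median was -0.07. In the tricarboxylic acid cycle, 4 of 14 genes were higher and 1 lower, with *CIT2* at 2.52 (1.89 to 3.20).

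The promoters of rising genes were searched for the stress element AGGGG, the core bound by Msn2 and Msn4, and for a short heat shock element, GAANNTTC or TTCNNGAA, on both strands. The 2 forms of the heat shock element can share bases with each other and with the stress element. The stress element stood in 21.6% of all promoters, in 45.1% of those of genes called higher, in 15.3% of those called lower, and in 35 of the 61 promoters of genes at least 4-fold higher. The heat shock element stood in 22.6% of all promoters, and it was no more frequent among the genes called higher, 22.1%, than among those called lower, 29.3%. Within the lists it was found in 8 of 10 genes for Hsp90 and its partners, in 6 of 8 for Hsp70 and Hsp110 and in 1 of 16 stress effectors, whereas the stress element was found in 11 of those 16. One site each is printed for 2 stress effectors and 2 chaperones, on the strand of the gene with the element in capitals. They lie at chrVI:107054-107082 (*HSP12*), chrXII:513886-513914 (*TFS1*), chrI:141554-141583 (*SSA1*) and chrXVI:98674-98703 (*HSP82*) in R64, from RefSeq.
HSP12: gttccggtcgtcCCCCTcttgatctgaaa
TFS1: tggtatataaaaAGGGGgcagcaagaaac
SSA1: attgatgtatcTTCGAGAAgggattgagtt
HSP82: ctgtattagagTTCAAGAAatcatacctga

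In the cell wall and cytoskeletal lists the shares of calls were close to those of all well-covered genes, which were 12% higher and 10.9% lower, so that only single genes are described. Of 22 genes for the cell wall, 3 were called higher and 3 lower, 13.6% each, with a median of -0.06. The wall proteins *CWP1*, from 705 to 2052 reads, *HSP150*, from 5003 to 8739, and *SED1*, from 4149 to 5809, changed by 2.25 (2.12 to 2.37), 1.51 (1.46 to 1.56) and 1.19 (1.14 to 1.25). The mannosyltransferase *PMT4*, from 140 to 19 reads, changed by -2.17 (-2.95 to -1.48), and the glucanosyltransferase *GAS1*, from 705 to 207, by -1.06 (-1.29 to -0.83). In the early secretory pathway 1 of 18 genes was called, the coatomer subunit *SEC26* at -1.79 (-2.86 to -0.85), while the oxidase *ERO1*, which drives disulfide formation in the endoplasmic reticulum, rose from 23 to 94 reads at 2.74 (2.07 to 3.46). Of 20 genes for actin and tubulin, 3 were higher and 2 lower, 15% and 10%. The tubulins *TUB1* and *TUB4* had -1.07 (-1.45 to -0.70) and -1.44 (-2.39 to -0.59), the actin-binding protein *ABP1* had 1.11 (1.00 to 1.21), and actin itself, *ACT1*, had 743 and 447 reads and -0.03 (-0.20 to 0.15). Of 6 genes of the pheromone response, 0 were called.

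Several pairs of paralogs with the same activity moved apart. A set of 26 pairs was listed after their values had been seen, so that the following is a description. In 17 pairs both copies were well covered, and in 9 the copies lay on opposite sides of the median. Within these 9, the counting intervals of *TDH3*, *SSE1* and *COX5A* included the median. *BAT2*, the cytosolic branched-chain aminotransferase, rose from 455 to 649 reads at 1.22 (1.04 to 1.40), while the mitochondrial *BAT1* fell. *RTN2* rose from 17 to 159 reads while *RTN1* fell, a difference of 6.83 on the log2 scale. *TDH1*, from 139 to 800 reads, rose while *TDH3*, from 6543 to 4005, stayed at the median, at 0.00 (-0.06 to 0.06). *HSP82* rose while *HSC82*, from 358 to 224 reads, had 0.03 (-0.22 to 0.28). *GDH3* and *GDH1*, the glutamate dehydrogenases, had 1.66 (0.90 to 2.42) and -0.82 (-1.04 to -0.61). In *UBC5* and *UBC4* the intervals overlapped.

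**Figure D4:**
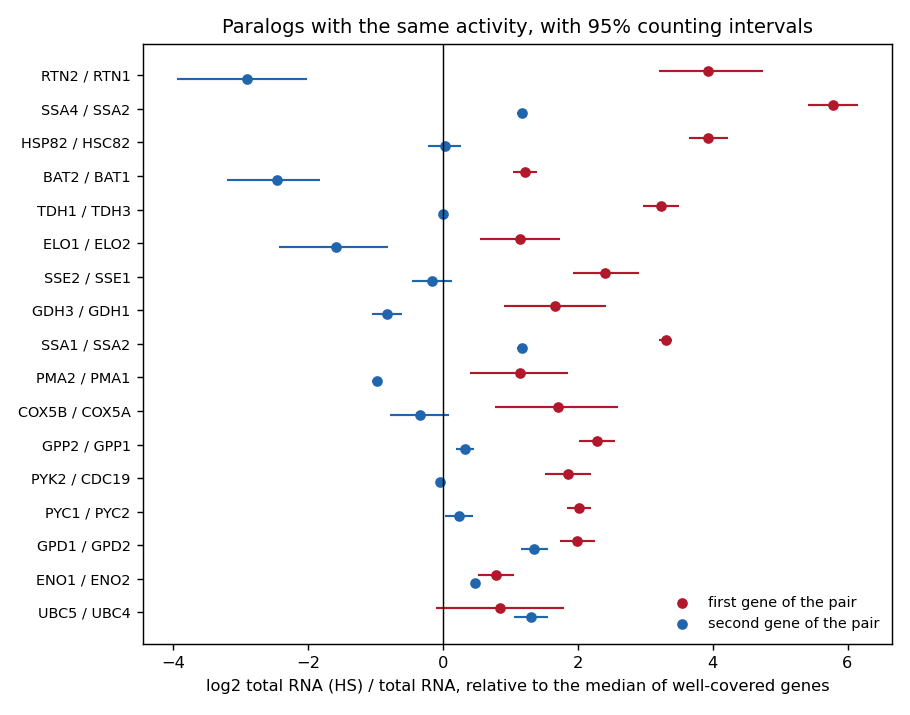
Relative log2 change of total RNA for the first (red) and second (blue) gene of 17 pairs of paralogs, with 95% counting intervals as lines; 0 is the median of well-covered genes. The intervals are apart in 16 of the 17 pairs, from RTN2 and RTN1 at the top to ENO1 and ENO2, and overlap in UBC5 and UBC4.

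The NRO data sets were set beside these calls as a further readout. They were not used to choose the genes. However, the total RNA libraries came from aliquots of the run-on samples, so that cultures may be shared and no test was made. The paper also measured a small part of total RNA in its NRO libraries, which would draw NRO towards total RNA and was not corrected for here. NRO changes are relative to the median of well-covered genes in NRO. Of the genes called higher in total RNA, 205 of 252 with an NRO value, 81.3%, lay above the NRO median, with a median NRO change of 0.95. Of the genes called lower, 182 of 227, 80.2%, lay below it, with a median of -0.77. By the 2-fold limit in NRO itself, 15.8% of all well-covered genes were higher and 17.3% lower, against 48.4% higher among the genes called higher in total RNA and 43.2% lower among those called lower.

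The groups of falling transcripts were not equally low in NRO. The aminoacyl-tRNA synthetases had a median NRO change of -0.66 and the processome -0.59, with 18 of 19 genes below the NRO median. The proteins of the large subunit had -0.16, with 30 of 48 below, and the 60S assembly factors -0.11, with 17 of 32 below, although the total RNA medians of these lists were -1.10 and -0.56. The 6 nuclear transport receptors had -1.93, all below the NRO median. The 5 iron and copper genes had a median of -2.51, with 4 of them below. That median is the value of *HMX1*, which was called higher in total RNA and had 40 and 1 reads in NRO and NRO (HS). *RPS0B*, at -2.26 in total RNA, had 0.16 in NRO, and *FET3*, at -3.23 in total RNA, had -4.55 with 4 reads in NRO (HS). The NRO (HS) data set was the shallowest, with 378273 reads.

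**Figure D5:**
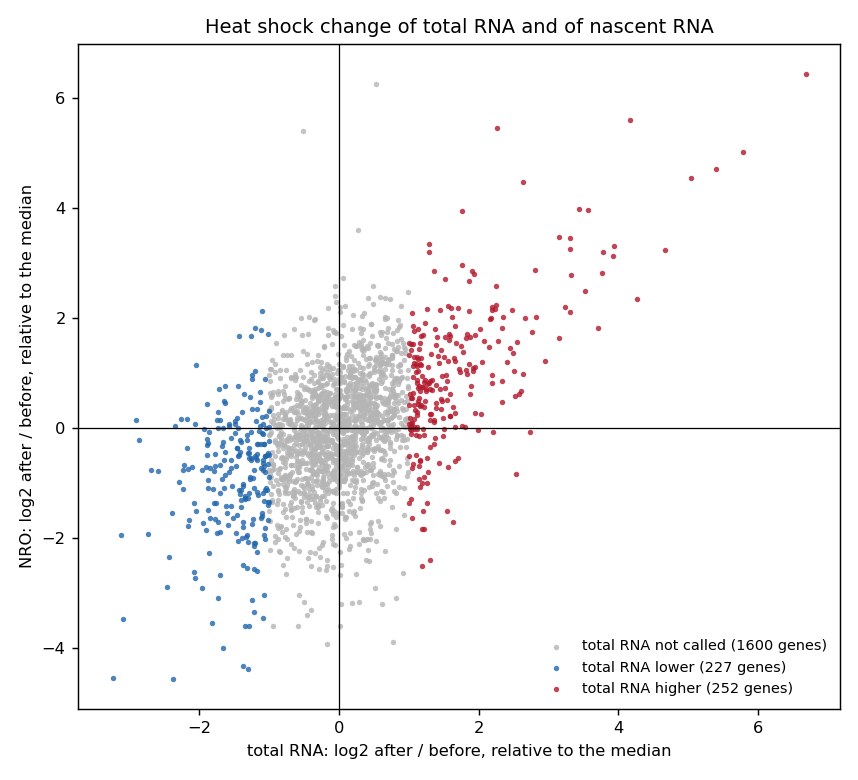
Relative log2 change of total RNA (x axis) and of nascent RNA in NRO (y axis) for the 2079 well-covered genes with a value in both, colored by their call in total RNA. Of the genes called higher, 205 of 252 lie above the horizontal line at 0, and of the genes called lower, 182 of 227 lie below it.

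Base composition moved with the change. From the lowest to the highest of 5 equal bins of GC content, the median relative change ran from -0.13 to 0.22 and the share called higher from 6.18% to 18.3%, while the share called lower was 10.2% in the lowest bin and 7.13% in the highest. Its part in the changes was not tested. By region length the share called lower stayed between 9.07% and 12.1%. The share called higher was 14.9% in the shortest of 5 bins and 7.36% in the longest, with median changes of 0.06 and -0.15. The part of length was not tested either.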

How the data were processed

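Strand-specific libraries were sequenced from BY4742, and the members and gene lists were chosen with earlier results of these data known. Per the labels and methods, the authors aligned reads to sacCer2, kept alignments with a mapping quality of at least 30, left out rDNA and merged the 3 libraries of a group. What the authors deposited is a coverage signal per transcript model, as a summed depth and as a read density, each scaled to the bases acquired. The genome build is named in the submitters' processing notes. Of the deposited depth columns, 16 were not used, and other columns (names, coordinates, lengths) served only as annotation.

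Depths are multiples of what a single base is worth, and this step was read off each file. Estimated reads are depth over read length (38 bases for total RNA, 36 for total RNA (HS), the lengths that left most low depths whole). The methods state 36 bases for all libraries, which the depths of total RNA do not bear out. The read count that the paper reports for total RNA is nearer to the estimate at 36 bases, 943943, than to the 894262 used. Depths and reported count thus point to different lengths, and this difference is unresolved. Reads are not independent molecules, so that intervals cover counting error only. The processed tables hold 1 pooled value per group and the reads were not used here, so that no test across replicates, leave-one-out or model was run, and a fold limit of 2 against the median served as the call. The pseudocount of 0.01 was used only in an alternative.

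The genes named by rule were, among well-covered genes, the 12 largest falls with at least 50 reads before heat shock and the 8 largest rises with at least 50 after. In each list described, the rule took the member with the most reads before, the largest fall and the largest rise. It also took the 6 and 4 deepest genes that met the minimum on 1 side only, and those next to the minimum. Every other gene named was chosen after its values were seen, as were the paralog pairs. There were 52 lists. Names were found for 4259 of 4280 models by systematic name in the RefSeq annotation of R64, from which GC content and promoters were read in that assembly's own coordinates. The steps were tested on simulated data. Alternatives covered the scaling, the minimum depth, mappability, introns, the pseudocount and the fold limit. Analysis was done in Python 3.11.15 with scipy 1.17.1, pandas 2.3.3 and numpy 2.4.6, and figures were drawn with matplotlib 3.10.9.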

Additional observations from a re-analysis of the deposited data

How the results depend on the processing

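The 253 genes called higher and 229 called lower became 160 and 374 on the scale as deposited, without centring, where the median gene shifts by -0.26 on the log2 scale. Over all genes above 0 they were 527 and 577, and at 4 times the minimum depth 120 and 90, of which 76 of the 90 had been called lower before. A limit of 1.5-fold gave 484 and 473, and a limit of 3-fold 105 and 82. With a pseudocount of 0.01 over all models 376 were lower. When only the minimum before heat shock was asked for, an alternative chosen after seeing the data, 573 were lower. Scaling to the bases within models gave 185 and 312, at least 90% mappable bases 247 and 223, and introns included 252 and 232, all within 1.5 times of the counts given. Of 29 lists, chosen from the 52 and followed through 8 settings, 26 kept the sign of their median change. In the settings without centring, 0 is not the median gene. The exceptions were glycolysis, the J-domain co-chaperones and pyrimidine synthesis. Glycolysis had -0.25 as deposited, where its place against the median gene is unchanged. Pyrimidine synthesis reversed to a median of 0.059 at 4 times the minimum depth, where fewer of its genes are left. Of the 232 list medians, 27 moved by more than the counting error of a typical member. The reversal of pyrimidine synthesis also exceeded it and is not counted among the 27. With the pseudocount over all models the median went from 1.79 to 0.10 for cytosolic Hsp70 and Hsp110, from 2.34 to 0.63 for glycogen and from 1.30 to 0.34 for antioxidant enzymes. No paired analysis was possible because the processed tables used here merge the libraries of each group, which share replicate numbers, into 1 value per gene. For the same reason no replicate was left out, and the reads were not used here. Depth limits the falls: after heat shock the median gene called lower had 27.2 reads.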
